A study of Caenorhabditis elegans with 2 samples.

Results

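The vacuolar ATPase pumps protons across membranes, and the 8 genes described here, vha-8 to vha-15, encode the subunits of its V1 sector in the nematode Caenorhabditis elegans. They were chosen by symbol, as the listed V1 subunit genes, from 19973 protein-coding genes on the nuclear chromosomes, and all 8 were found in the annotation. Binding of the nuclear hormone receptor NHR-90 was mapped by chromatin immunoprecipitation and sequencing (ChIP-seq). All material came from whole hermaphrodite L1 larvae of strain OP483 in 2 biological replicates, a single group and genotype unc-119(tm4063) III; wgIs483, collected 6 h after synchronisation by starvation following bleaching. The larvae carry NHR-90 with a C-terminal GFP-FLAG tag, and chromatin was precipitated with an antibody to GFP. The sequences driving the transgene are not given in the labels, and in whole larvae the cell types that contribute to a peak cannot be told apart.

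The V-ATPase has 2 sectors. V1 faces the cytosol, where a ring of A and B subunits hydrolyses ATP and turns a central stalk of D and F. Peripheral stalks of E and G, with C and H, hold the ring still against the membrane-embedded V0 sector, whose proteolipid ring and subunit a carry the protons. The pump acidifies lysosomes and other endomembrane compartments, and in worms it also works at the surfaces of the intestine, excretory cell and hypodermis. The RefSeq products of the 8 genes are subunits A (vha-13), B 1 (vha-12), C (vha-11), D (vha-14), E (vha-8), F (vha-9), G (vha-10) and H 2 (vha-15), several of them marked putative.

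Optimal NHR-90 peaks lay at 6 of the 8 V1 genes, with the summit upstream of the 5′ end at 5 and downstream at 1. Over all coding genes with an optimal summit, 3.94% had it downstream. Optimal peaks are the 4133 that the authors kept after thresholding on the irreproducible discovery rate, and a gene counts when a summit falls no more than 2000 bp before, or 200 bp past, the 5′ end of one of its transcripts. Over all protein-coding genes the share was 18.7%, lower than among the V1 genes, with no test of the difference. Annotated 5′ ends in worms are often sites of trans-splicing and not of transcription start. The genes were vha-8, vha-9, vha-11, vha-12, vha-13 and vha-15, each with 1 optimal summit. Those for subunits D (vha-14) and G (vha-10) had none. Among candidates called on the pooled replicates, a list of 30000 that reaches into background, all 8 genes had a summit in the window, against 55.0% of coding genes. Signal below is the authors' value for a peak, on a scale not given in the sources used here. It is compared between lists only as a rank, where 1 is the strongest. Each gene's strongest pooled candidate is given, and replicate values are those of the replicate peak that overlaps it.

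The bases around 4 of the optimal summits are shown first, because they carry the positions and motifs to which the values below refer. Each run is 101 bases, 50 on either side of the summit in the pooled list, read from the RefSeq WBcel235 genome (ce11) along the strand of the gene. Capitals mark matches to any of 6 motifs on either strand: the E-box CACGTG and its longer form TCACGTGA, the repeat GAGAGA, GAGACGCAG as bound by EOR-1 (a zinc-finger factor), the nuclear receptor half-site AGGTCA and the GATA factor site TGATAA. Every TCACGTGA also counts as CACGTG. Overlapping matches run together, and the vha-12 window holds none.
vha-12, chrX:4190708-4190808, plus strand: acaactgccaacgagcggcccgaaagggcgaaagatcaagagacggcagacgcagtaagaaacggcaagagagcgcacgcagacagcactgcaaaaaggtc
vha-8, chrIV:6790577-6790677, plus strand: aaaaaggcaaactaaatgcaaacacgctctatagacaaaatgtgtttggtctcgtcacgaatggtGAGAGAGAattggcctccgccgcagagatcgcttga
vha-9, chrII:10303886-10303986, minus strand: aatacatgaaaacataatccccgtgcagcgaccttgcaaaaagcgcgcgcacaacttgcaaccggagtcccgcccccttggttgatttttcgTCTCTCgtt
vha-15, chrX:2237589-2237689, plus strand: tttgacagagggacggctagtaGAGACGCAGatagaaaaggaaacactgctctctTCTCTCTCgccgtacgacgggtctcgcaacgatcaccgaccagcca

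The ATP-hydrolysing ring is made of subunits A and B. vha-12, for subunit B, had the highest signal of the V1 genes. The gene lies on X (4191094 to 4193144, plus strand), and its intergenic peak spans 4190617 to 4190905 with the summit 336 bp upstream of the 5′ end. Signal was 378.5 in the pooled list (rank 321), 160.6 in replicate 1 (rank 468) and 216.8 in replicate 2 (rank 204). Both replicates placed the peak well inside their own strongest 4133. With piRNA genes left out, here and below, no other gene's window held this summit. The nearest coding gene upstream, mrp-6, lies 4337 bp away and points the other way. vha-13, for the catalytic subunit A, had a weaker peak. It lies on V (14351709 to 14354422, plus strand), with the peak at 14350945 to 14351344 and the summit 564 bp upstream. That summit falls in the untranslated end of cept-2, which lies 226 bp upstream on the same strand and ends toward vha-13. Its bases are therefore not shown. Signal at vha-13 was 114.2 pooled (rank 2289), 70.3 in replicate 1 (rank 1806) and 44.4 in replicate 2 (rank 3230). The peak ranked inside the strongest 4133 of both replicates, below the median optimal signal of 123.6.

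The central stalk, which the ring turns, combined a gene with a strong peak and a gene without an optimal one. vha-9, for subunit F, lies on II (10303050 to 10303713, minus strand), and its peak at 10303831 to 10304027 is intergenic with the summit 223 bp upstream. Signal was 237.1 pooled (rank 777), 112.9 in replicate 1 (rank 861) and 120.8 in replicate 2 (rank 750). The windows of 4 other genes hold this summit, namely clpp-1, a pair of tRNA genes and the noncoding RNA gene ZK970.10, but vha-9 has the nearest 5′ end. vha-14, for subunit D, lies on III (9508100 to 9509757, plus strand). Its strongest candidate, at 9507788 to 9508187, had the summit 112 bp upstream and a signal of 47.4 pooled (rank 6441). It ranked 6721 in replicate 1 (signal 24.9) and 8974 in replicate 2 (20.6). All 3 ranks lie beyond the optimal list, whose weakest peak has a signal of 69.4. The optimal summit nearest to vha-14 was 7586 bp upstream (signal 110.4).

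The peripheral stalks showed the same contrast. vha-8, for subunit E, lies on IV (6791074 to 6792455, plus strand), with an intergenic peak at 6790527 to 6790738 and the summit 447 bp upstream. Signal was 316.0 pooled (rank 458), 138.9 in replicate 1 (rank 603) and 166.1 in replicate 2 (rank 397). The peak is shared: C17H12.2 starts head to head with vha-8, 585 bp away, and its 5′ end is nearer to the summit, at 139 bp. vha-10, for subunit G, lies on chromosome I (5609341 to 5610270, minus strand), where trpp-8 precedes it by 103 bp on the same strand. Its strongest candidate (5610487 to 5610886) had its summit in an intron of trpp-8, 417 bp upstream of vha-10. Signal was 48.1 pooled (rank 6342), 26.2 in replicate 1 (rank 6278) and 23.6 in replicate 2 (rank 7451). As at vha-14, no list placed it among the strongest 4133. A second candidate 1519 bp upstream of vha-10 was about as strong in the pooled list (47.9). The nearest optimal summit was on the far side of the gene, 1196 bp downstream of its 5′ end (signal 113.0).

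Subunits C and H join the stalks to the rest of the enzyme and are known to control its assembly and activity in yeast. vha-15, for subunit H, lies on X (2237911 to 2240255, plus strand), with an intergenic peak at 2237439 to 2237838 and the summit 272 bp upstream. Signal was 166.0 pooled (rank 1342), 82.5 in replicate 1 (rank 1404) and 81.0 in replicate 2 (rank 1414). Ranks differed less between the replicates here than at the other V1 genes, and no other gene's window held the summit. vha-11, for subunit C, lies on IV (2307815 to 2314567, minus strand) and was the exception in position. Its peak (2314186 to 2314585) had the summit in an intron of vha-11 itself, 181 bp downstream of the 5′ end and close to the 200 bp limit of the window. Signal was 73.3 pooled (rank 3866), 50.1 in replicate 1 (rank 2764) and 21.4 in replicate 2 (rank 8536). The optimal call at vha-11 therefore came with a peak that replicate 2 did not place among its strongest 4133. In replicate 2 another candidate of the window was stronger, 1040 bp upstream (signal 23.9, rank 7303). The upstream neighbour of vha-11 is vha-3, a V0 proteolipid gene on the same strand, 892 bp away. The summit of that replicate 2 candidate falls inside vha-3.

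**Figure D1:**
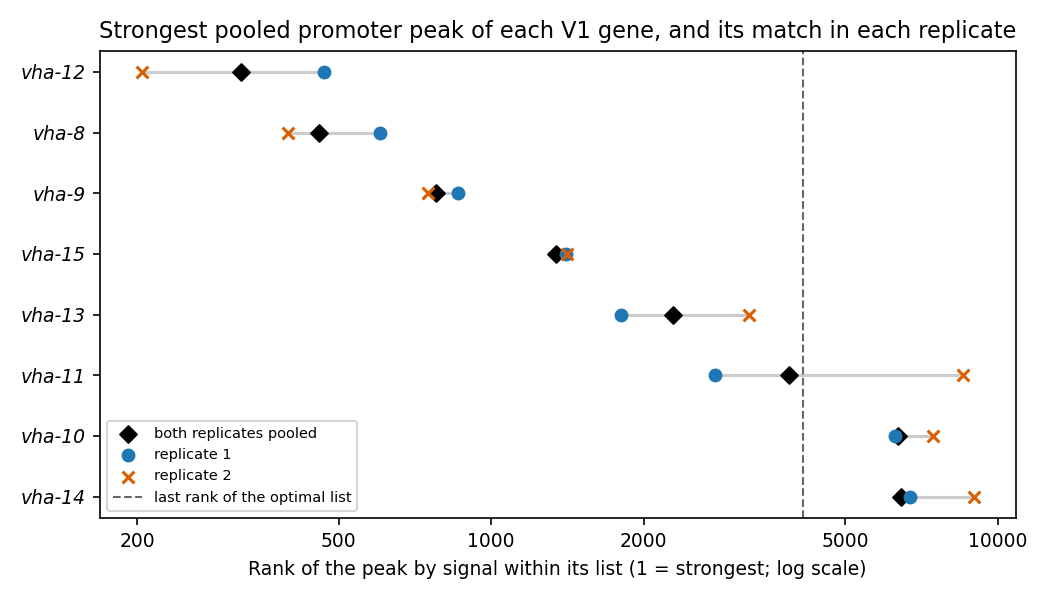
Rank by signal (horizontal axis, log scale, 1 is the strongest) of the strongest pooled candidate in the promoter window of each of the 8 V1 genes (diamonds) and of the peaks matched to it by overlap in replicate 1 (circles) and replicate 2 (crosses). At vha-11 the replicates fall on both sides of the dashed line at rank 4133, the end of the optimal list.

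The replicates ranked the V1 peaks in a like order. Spearman's rho between the replicates' ranks of the matched peaks over the 8 genes was 0.98. It is a description over sites that share libraries and were chosen by their signal in the pooled list. Of the 6 optimal peaks, 5 were among the strongest 4133 in both replicates, beside 78.7% of all optimal peaks. The ratio between the replicates' ranks was 1.01 at vha-15, 1.15 at vha-9, 1.52 at vha-8, 1.79 at vha-13, 2.29 at vha-12 and 3.09 at vha-11. Its median over the 4121 optimal peaks matched in both replicates was 1.34, and 2.69% of them reached 3 or more. vha-12 and vha-8 ranked higher in replicate 2, while vha-13 and vha-11 ranked higher in replicate 1, so neither replicate was the stronger throughout. Summits stayed close: over the pooled list and both replicates they spanned 5 bp at vha-9, 8 bp at vha-15, 13 bp at vha-12, 25 bp at vha-11, 30 bp at vha-13 and 33 bp at vha-8. The median span over all matched optimal peaks was 25 bp.

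Signals at the V1 genes covered much of the range of bound coding genes. The median strongest candidate over all 8 V1 genes was 140.1, against 17.9 over all coding genes, with genes lacking a candidate counted at 0. Among the 3730 coding genes with an optimal summit, 10.9% had a higher strongest peak than vha-12, 15.5% than vha-8, 25.7% than vha-9, 41.3% than vha-15, 63.9% than vha-13 and 95.6% than vha-11. Of the 8 V1 genes 4 (vha-8, vha-9, vha-12 and vha-15) kept a summit among the 2066 strongest optimal peaks, against 11% of coding genes. The peaks of vha-8, vha-9 and vha-12 were also narrow, at 212, 197 and 289 bp. The other 3 had 400 bp, the median width, and 29.8% of all optimal peaks were narrower than that. Narrow peaks were stronger over the whole optimal list, with a median signal of 253.6 below 400 bp and 100.3 at 400 bp or more. In replicate 1 the matched peaks of vha-9 and vha-12 were both 380 bp wide. Ranks nearest to those of vha-12 in the pooled list and both replicates, by distance of their log10 values, belonged to nipi-3, eif-2Bgamma and Y73F8A.27. These peaks ranked 342, 317 and 327 in the pooled list, at distances of 0.045, 0.073 and 0.089.

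**Figure D2:**
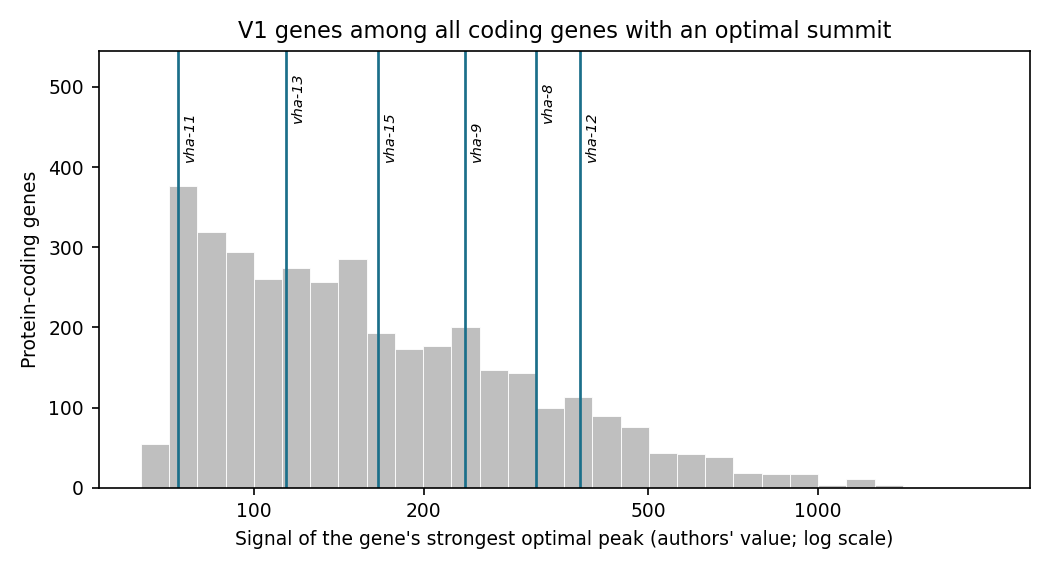
Number of protein-coding genes (vertical axis) by the signal of their strongest optimal peak within the promoter window (horizontal axis, the authors' value, log scale). Lines mark the 6 V1 genes with an optimal summit, from 73.3 at vha-11 to 378.5 at vha-12.

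Within the window, the optimal V1 summits lay near the 5′ ends of their genes, and most optimal V0 summits lay farther off. With the window cut to 1000 bp upstream, 6 of 8 V1 genes still had an optimal summit, against 1 of 10 V0 genes and 14.7% of all coding genes. With 2000 bp the V0 count was 6 of 10. The V1 summits were 181 to 564 bp from the 5′ end, and the median over coding genes with an optimal summit was 339 bp. At V0 genes the strongest, unc-32 (subunit a; signal 479.5), had its summit 1324 bp upstream and only 160 bp from the 5′ end of lin-9, which is transcribed the other way. Summits for vha-6 (97.9) and vha-17 (80.6) lay 1923 and 1920 bp upstream, nearer to VW02B12L.2 and nemt-1, and the summit for vha-5 (82.7) lay 1908 bp upstream. The neighbours vha-1 and vha-2, both for proteolipids, shared 1 peak (177.8), 428 bp upstream of vha-1 and 1338 bp upstream of vha-2. Its summit also lay 472 bp upstream of sqv-3, which is transcribed the other way. Outside the window, vha-2 and vha-17 had optimal summits nearer to the 5′ end, 1113 bp (signal 100.5) and 844 bp (69.7) downstream of it. Given to the nearest 5′ end alone, summits were left at 5 V1 genes and 2 V0 genes, against 10.9% of coding genes. The V1 gene lost was vha-8, to C17H12.2. vha-16, for V0 subunit d, missed the optimal list narrowly by its pooled rank: its candidate 181 bp upstream had a signal of 69.0 and rank 4163. The matched peak ranked 3171 in replicate 1 (signal 44.6) but 8420 in replicate 2 (21.6).

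**Figure D3:**
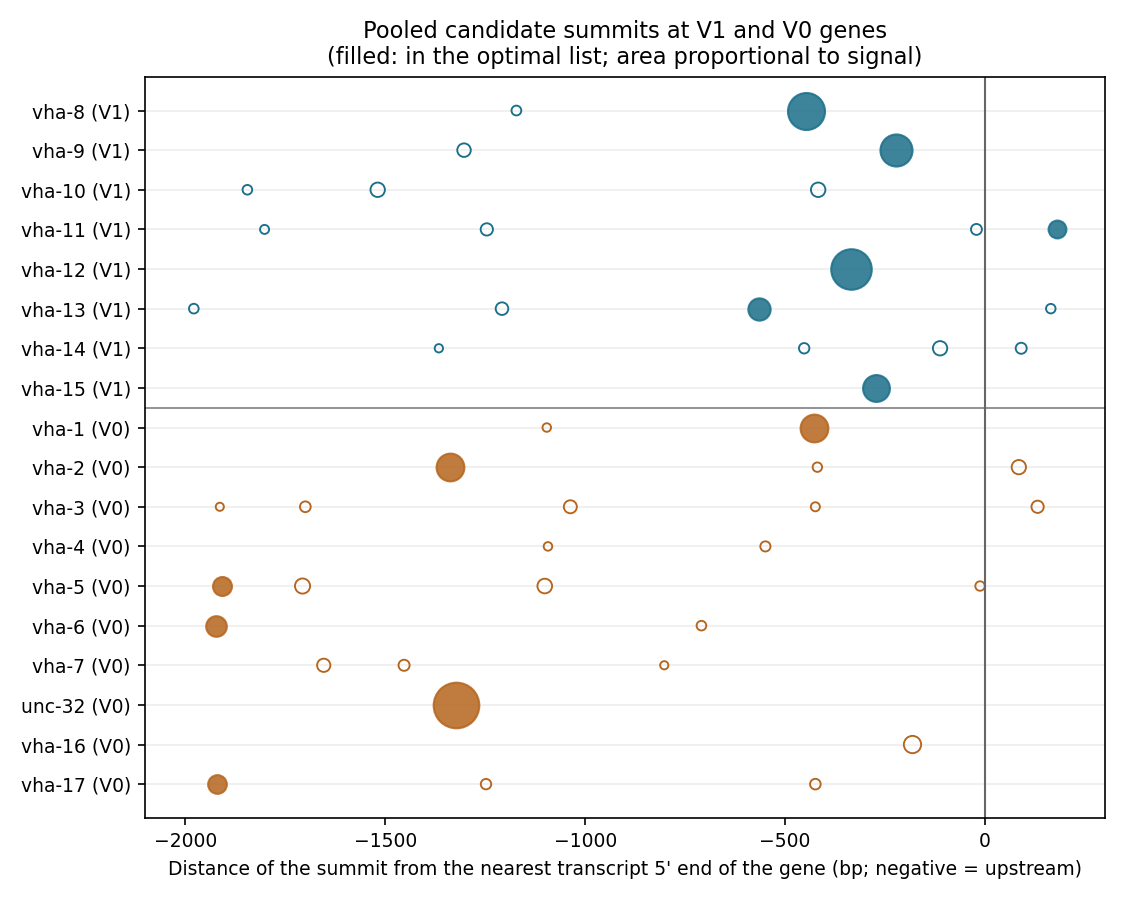
Distance of every pooled candidate summit from the nearest 5′ end of its gene (horizontal axis, bp, negative upstream) for 8 V1 genes (top) and 10 V0 genes (bottom), with the area of each circle proportional to signal and optimal peaks filled. Filled V1 circles lie within 564 bp of the 5′ end, while those of vha-2, vha-5, vha-6, unc-32 and vha-17 lie 1324 bp or more upstream.

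Optimal summits were also found at some V-ATPase genes outside both lists and at some lysosome genes. Of the 4 other V-ATPase genes, spe-5 (a second B subunit; signal 91.6) and vha-20 (related to the renin receptor; 72.4) had an optimal summit, and vha-18 (a second H subunit) and vha-19 (related to S1) had none. For subunit B the paralogs thus had signals of 378.5 at vha-12 and 91.6 at spe-5, whose summit lay 1418 bp upstream in a coding exon of chp-1. For subunit H they had 166.0 at vha-15 and, as the strongest candidate, 21.6 at vha-18. Of 25 lysosome genes 8 had an optimal summit, beside 18.7% of all coding genes, with no test of the difference. The strongest were ppk-3 (a lipid kinase; 293.3), hlh-30 (the worm TFEB, a transcription factor of lysosome genes; 182.2), and cpl-1 and asp-3 (proteases; both 100.1). The hlh-30 summit lay in an intron of hlh-30 itself, 260 bp upstream of the nearest of its 10 transcript 5′ ends. It was lost when only the outermost 5′ end counted. The asp-3 summit lay 1900 bp upstream, in an intron of sgca-1, and was lost with the window cut to 1000 bp. With all members counted, the median strongest candidate was 140.1 for V1, 81.7 for V0, 65.4 for the other V-ATPase genes and 44.3 for the lysosome genes.

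**Figure D4:**
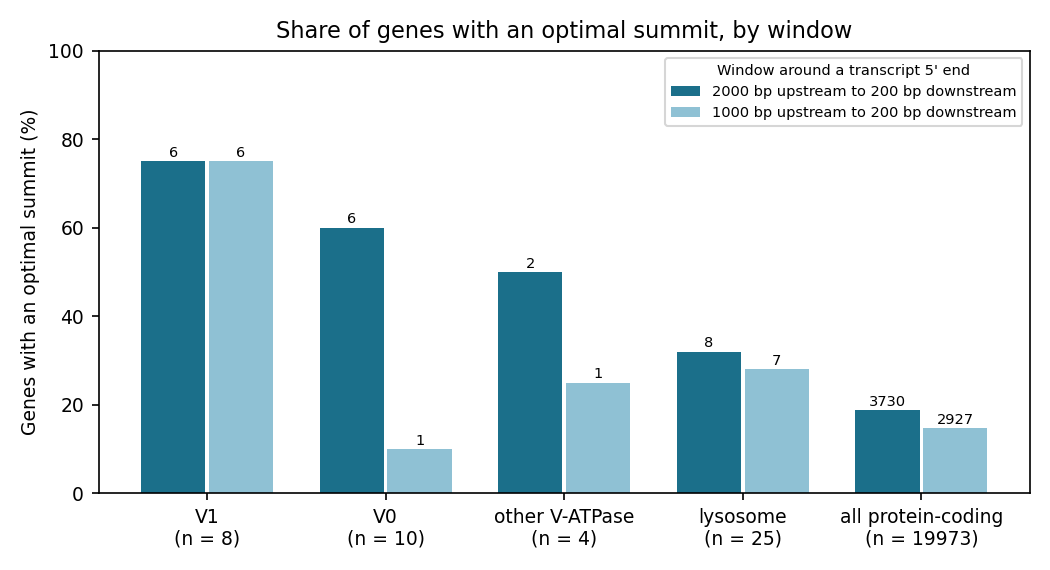
Share of genes with an optimal summit (vertical axis, %) for the V1, V0, other V-ATPase and lysosome lists and for all protein-coding genes, with the window from 2000 bp (dark) or 1000 bp (light) upstream to 200 bp downstream; the number of genes stands on each bar. The V1 count is 6 in both windows, and the V0 count is 6 in the wider and 1 in the narrower window.

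Of the 6 motifs, GAGA repeats were seen most often at the V1 summits, as they were over all optimal peaks. GAGAGA lay within 50 bp of the summit at 3 of the 6 optimal V1 peaks, against 23.2% of all optimal peaks and 8.0% of weaker pooled candidates. In the windows printed above it starts 15 and 17 bp past the vha-8 summit, 42 bp past that of vha-9, and 5 and 7 bp past that of vha-15, and it is on the other strand at vha-9 and vha-15. Within 100 bp it was at 5 of the 6, with vha-12 (88 bp before the summit) and vha-13 added, against 35.4% of all optimal peaks. vha-14, which has no optimal peak, also had GAGAGA within 100 bp of its candidate summit. The EOR-1 site GAGACGCAG was at vha-15 alone, 28 to 20 bp before the summit, and at 7.26% of all optimal peaks. TGATAA was at vha-11, 32 bp past the summit, against 12.3% of all optimal peaks and 14.3% of weaker pooled candidates. Neither the E-box, which HLH-30 and TFEB recognise, nor the half-site AGGTCA was within 100 bp of any of the 6 summits. Within the same distance the E-box was at 11.3% of all optimal peaks and AGGTCA at 7.4%. At least 1 of the 6 motifs was within 50 bp of 4 of the 6 summits, against 44.3% of all optimal peaks and 25.5% of weaker candidates.

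No stretch of 8 bases was common to 3 or more of the 6 V1 windows, and 11 were found in 2. Several of the 11 overlap within longer runs shared by the same 2 genes, as at vha-11 and vha-13. No such count was made for other sets of windows. Of the 11, 2 were at both X-linked genes, vha-12 and vha-15, and were noticed after the windows were read. AAGAGAGC spans the vha-15 summit and was within 50 bp of 0.847% of all optimal summits and 0.421% of weaker candidates. The other, AGACGCAG, comprises the last 8 bases of the EOR-1 site. It spans the summit of vha-12, from 3 bp before to 4 bp past it, while at vha-15 it is part of the full site. It was within 50 bp of 8.11% of all optimal summits and 1.53% of weaker candidates. The whole vha-12 peak as the authors called it is shown for this reason, with GAGAGA (on the other strand) and AGACGCAG in capitals.
vha-12, chrX:4190617-4190905, plus strand: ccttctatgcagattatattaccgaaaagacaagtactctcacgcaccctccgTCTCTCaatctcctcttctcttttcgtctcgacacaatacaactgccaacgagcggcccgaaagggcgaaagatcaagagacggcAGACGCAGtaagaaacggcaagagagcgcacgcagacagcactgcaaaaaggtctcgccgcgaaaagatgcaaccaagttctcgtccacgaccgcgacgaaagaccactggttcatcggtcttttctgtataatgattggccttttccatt
The windows of vha-12 and vha-13 held 56.4% G and C, that of vha-15 54.5%, vha-9 51.5%, vha-8 45.5% and vha-11 33.7%. The median over all optimal peaks was 44.6%.

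The lists of strongest peaks from each replicate gave like counts. Among the 4133 strongest peaks of replicate 1, 6 V1 genes had a summit in the window, against 18.7% of coding genes. Among those of replicate 2 it was 5, without vha-11, against 18.2%. No group was compared with another here: a control library is not analysed, read counts are not used and depth is unknown, so the counts and signals carry no test.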

How the data were processed

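Peak lists in narrowPeak format were deposited by the authors. Per the labels' file listings, each replicate's candidates and the pooled candidates were derived from alignments and a control, and the optimal list by irreproducible discovery rate from those 3 lists. Neither caller nor aligner is named in the sources used here. The ce11 lists were used, with the authors' deposited signal per peak for ranks within a list. The q-value, deposited as −log10, was 3.99 throughout the optimal list and was not used for ranks or counts. Depth per sample is unknown.

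Summits (1-based) were assigned to every Ensembl release 115 gene (WBcel235, the assembly of ce11) with a transcript 5′ end in range, and no coordinate was converted. piRNA genes were left out where other genes sharing a summit, or the nearest 5′ end, are given. Replicate candidates were matched to a pooled peak by 1 bp of overlap, taking the strongest. Motifs were sought on both strands within 50 bp of summits. Assignment and motif search were tested on simulated data. Python 3.11.15, numpy 2.4.6, pandas 2.3.3 and scipy 1.17.1 were used. The members, lists and motifs were chosen with earlier results of these data known, so no set test was made. Named are all V1 genes, genes sharing their optimal peaks, up to 4 bound genes of each other list and the 3 coding genes ranked most like the strongest member. Genes that neighbour or overlap these peaks (mrp-6, trpp-8, cept-2, vha-3, chp-1, sgca-1, sqv-3, lin-9, VW02B12L.2 and nemt-1) are named for position. The genes vha-5, vha-16, vha-17, vha-18 and vha-19 were added after their values were seen. Y49A3A.6, an antisense RNA gene, also shares the vha-13 peak.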

Additional observations from a re-analysis of the deposited data

How the results depend on the processing

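The V1 count stayed between 4 and 6 of 8 in every alternative run: 5 within 500 bp upstream or by nearest 5′ end, 4 (vha-8, vha-9, vha-12 and vha-15) in the 2066 strongest optimal peaks, and 5 to 6 with 1 replicate left out, where vha-11 was lost without replicate 1. The V0 count, 6 of 10, was 1 within 1000 or 500 bp upstream, 2 by nearest 5′ end, 3 in the strongest 2066, and 4 to 7 with 1 replicate left out. The share of all coding genes, 18.7%, was 14.7% and 11.8% within 1000 and 500 bp, 10.9% by nearest 5′ end, 17.5% from the outermost 5′ end, 19.3% by interval overlap, 11% in the strongest 2066, 17.6% over all genes except piRNAs and 18.2% to 18.7% with 1 replicate left out. Narrower windows and shorter lists hold fewer summits by construction. V1 peaks with a motif, 4 of 6, were 2 within 25 bp and 6 within 100 bp. Over all optimal peaks the share was 44.3% within 50 bp, 26.4% within 25 bp and 61.8% within 100 bp. The median rank of the V1 genes, 1815.5, was 1605 to 2322 with 1 replicate left out, taking the strongest candidate of the remaining replicate. Without reads or a control library, no error was measured here for weak peaks such as those of vha-11, vha-10 and vha-14. Their deposited q-values, as −log10 in the pooled list, were 3.99 at vha-11, 1.93 at vha-10 and 1.9 at vha-14. The matched vha-11 peak had 0.98 in replicate 2.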
